A study of Mus musculus with 9 samples.

Results

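The immediate early genes Fos, Fosb, Jun, Junb, Egr1, Arc, Nr4a1, Ier2 and Btg2 were described in sorted Thy1-YFP cells of the mouse amygdala, labelled as pyramidal neurons. The 9 genes were chosen by symbol, and the rows of each expression table were taken whose Ensembl identifiers carry these symbols. The table of balancing (BA) and approaching (AP) mice lists 11820 genes and 7 of the 9, Fos, Fosb, Jun, Junb, Egr1, Arc and Nr4a1. The table of BA and avoiding (AV) mice lists 9872 genes and 1 of the 9, Arc. Ier2 and Btg2 are listed in neither table and have no value here. All mice carried the Thy1-YFP transgene of B6.Cg-Tg(Thy1-YFP)HJrs/J mice, in which the Thy1 promoter drives a fluorescent protein in pyramidal neurons of the amygdala but also in other forebrain neurons. The phenotype was read from behavior in a conflict between approach and avoidance, no agent was given, and the tissue was taken 1 month after that task. The age of the mice is not given in the sources used here. Fluorescent cells were sorted from enzymatically dissociated tissue punches, and each library came from 1 mouse, 3 BA, 3 AP and 3 AV mice in all. The dissociation included warm incubations before sorting, and the RNA input was very low and differed widely between libraries. The part of either in the values was not tested. The tables hold values of AV replicates 1 and 3 only, since 1 AV mouse had been taken out by the authors as an outlier, and both tables hold the same 3 BA mice.

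Immediate early genes are transcribed within minutes of a stimulus without new protein synthesis, because the factors that switch them on are already bound or waiting in the cell. In neurons, calcium entry and kinase signaling activate CREB, serum response factor with its Elk partners, and MEF2 at their promoters, and the transcripts decay quickly once the signal stops. Their products are mostly transcription factors, and in the amygdala Fos, Egr1 and Arc are widely used to mark neurons active during fear and reward learning, while glia and stressed cells also express many of these genes.

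The values are a normalized signal per gene and mouse, with column sums from 4589304 to 5072766 in the BA vs AP table and from 3267967 to 3974274 in the BA vs AV table. In the BA vs AP table most low values stand on steps of 1 read, and the lowest value of any member, that of Nr4a1 in BA replicate 3, corresponds to about 198 reads. For the table with AV mice the depth is unknown. The sorted cells were labelled as pyramidal neurons, but each table lists only 2 of 11 pyramidal neuron markers, Camk2a and Nrgn, and lists none of Slc17a7, Slc17a6, Neurod1, Neurod2, Neurod6, Tbr1, Thy1, Rbfox3 or Snap25. The summed value of Camk2a and Nrgn lay between 79.7 and 119 in BA mice and at 82.5, 955 and 1798 in AP replicates 1, 2 and 3. In the BA vs AV table it lay between 67.1 and 93.0 in BA mice and at 1785 and 3096 in AV mice. Oligodendrocyte lineage markers, 9 of 9 listed and led by Mbp, summed to between 62406 and 100408 in BA mice and to between 75189 and 97026 in AP mice. Beside AV mice, their 8 listed genes summed to between 53091 and 81701 in BA mice and to between 32536 and 40759 in AV mice. The sum hides genes that did not move alike. Mbp had a mean of 30196 in BA and 19629 in AV mice, Mag of 6691 and 1682.5, and Mog of 2742 and 709. Pdgfra, the only 1 higher in AV mice, had a mean of 327 in BA and 1215 in AV mice. Because these are bulk libraries, fewer cells of a type and less RNA per cell cannot be told apart.

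The promoters of 4 of the genes are shown for the short TGACG core of the cyclic AMP response element, the site that CREB binds. RefSeq gives windows from 250 bases before to 50 bases after the transcription start on GRCm38.p6 for 6 of the 9 genes, Fos, Fosb, Jun, Junb, Nr4a1 and Btg2. Of these, Fos (chr12:85473640-85473939, plus strand), Fosb (chr7:19309996-19310295, minus strand), Junb (chr8:84978699-84978998, minus strand) and Nr4a1 (chr15:101266596-101266895, plus strand) are printed 5′ to 3′ on the strand of the gene, with each TGACG, or CGTCA where it lies on the other strand, in capitals.
Fos: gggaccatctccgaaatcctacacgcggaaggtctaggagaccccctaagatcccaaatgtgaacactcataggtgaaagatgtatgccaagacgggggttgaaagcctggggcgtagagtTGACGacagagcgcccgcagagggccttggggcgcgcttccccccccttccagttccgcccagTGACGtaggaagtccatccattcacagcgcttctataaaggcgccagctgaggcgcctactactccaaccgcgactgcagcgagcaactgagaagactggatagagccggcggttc
Fosb: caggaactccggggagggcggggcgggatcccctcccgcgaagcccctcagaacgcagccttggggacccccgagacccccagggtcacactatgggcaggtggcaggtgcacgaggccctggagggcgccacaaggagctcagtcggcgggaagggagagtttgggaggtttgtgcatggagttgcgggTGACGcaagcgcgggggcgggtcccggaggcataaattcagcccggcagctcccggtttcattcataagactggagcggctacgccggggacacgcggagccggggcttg
Junb: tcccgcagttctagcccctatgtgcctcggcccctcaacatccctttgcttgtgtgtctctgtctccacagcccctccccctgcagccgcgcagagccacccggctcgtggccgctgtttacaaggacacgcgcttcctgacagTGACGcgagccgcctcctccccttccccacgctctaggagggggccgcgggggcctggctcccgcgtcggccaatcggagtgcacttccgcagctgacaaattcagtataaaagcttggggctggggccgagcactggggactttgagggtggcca
Nr4a1: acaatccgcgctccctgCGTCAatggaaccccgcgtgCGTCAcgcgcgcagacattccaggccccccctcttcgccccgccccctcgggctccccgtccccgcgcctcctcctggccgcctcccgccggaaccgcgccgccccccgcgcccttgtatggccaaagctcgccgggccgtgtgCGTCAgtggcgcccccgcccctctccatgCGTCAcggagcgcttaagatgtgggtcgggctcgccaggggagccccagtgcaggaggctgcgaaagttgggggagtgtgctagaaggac
The cores began 129 and 66 bases before the start in Fos, 60 bases in Fosb, 106 bases in Junb, and 233, 213, 69 and 40 bases in Nr4a1. A TGACG on either strand was found in 5 of the 6 windows, all but that of Jun, and in 20.8% of 32851 promoter windows of the same length. The complete site TGACGTCA, which contains the core on both strands, was found in 1 of the 6, Btg2, and in 1.79% of all windows. The CArG box of serum response factor was in 0 of the 6 windows and in 1.63% of all, and the AP-1 site TGANTCA was in 0 of the 6 and in 7.81%. The TATAAA motif was in the windows of Fos and Junb, 2 of the 6, and in 13.6% of all. It began 33 bases before the start in Fos and 0 bases before it in Junb. GENCODE places the start of Junb further downstream, at 84978718, so the distances given for Junb depend on the start used. These are matches of letters in short windows and not measurements of binding. Sites more than 250 bases before the start were not searched, and Egr1, Arc and Ier2 had no window.

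Fos and Fosb code for the leucine zipper proteins that pair with Jun proteins to form the factor AP-1. Fos (ENSMUSG00000021250.13, chromosome 12 of GRCm38 from 85473890 to 85477273) had normalized values of 4713, 2338 and 1526 in BA replicates 1, 2 and 3, and of 5486, 3433 and 6787 in AP replicates 1, 2 and 3. Thus BA replicate 1 lay above AP replicate 2, and the other BA mice lay under every AP mouse, so the groups overlapped. The log2 fold change of Fos, AP minus BA on log2(value + 1), was 0.98 with a standard error (SE) of 0.43 and a 95% interval from -0.01 to 1.96. The limma test adjusted over all genes gave an adjusted p of 0.653. Fosb (ENSMUSG00000003545.3, chromosome 7 from 19302696 to 19310051) was at 4370, 1717 and 1135 in BA mice and at 4483, 2251 and 4211 in AP mice. For Fosb, BA replicate 1 lay above AP replicates 2 and 3, and the spread of the BA mice, with a coefficient of variation of 71.6%, was the widest of the 7 genes. Its log2 fold change was 0.77 (SE 0.49, adjusted p = 0.717 by limma).

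Jun and Junb code for the partners of Fos proteins in AP-1. Jun (ENSMUSG00000052684.4, chromosome 4 from 95049034 to 95052222) was at 3007, 2019 and 1775 in BA mice and at 4042, 2462 and 3642 in AP mice. Only BA replicate 1 lay within the range of the AP mice, and the coefficient of variation in BA mice was the lowest of the 7, 28.8%. The log2 fold change of Jun was 0.58 (SE 0.29, adjusted p = 0.690 by limma). Junb (ENSMUSG00000052837.7, chromosome 8 from 84974484 to 84978718) was at 668, 249 and 299 in BA mice and at 915, 479 and 1004 in AP mice. Again BA replicate 1 alone lay above the lowest AP mouse. Its log2 fold change was 1.05 (SE 0.43, 95% interval from 0.07 to 2.02, adjusted p = 0.616 by limma). Exons of Junb share 173 bases with Prdx2 on the opposite strand, and exons of Jun share 232 bases with the antisense gene Junos. The libraries were stranded, but whether strand was used in the quantification is not stated, so reads of these stretches are uncertain.

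Egr1 and Nr4a1 code for a zinc finger factor and for an orphan nuclear receptor. Egr1 (ENSMUSG00000038418.7, chromosome 18 from 34859823 to 34864984) was at 4189, 2110 and 1775 in BA mice and at 6198, 3435 and 6326 in AP mice. AP replicates 1 and 3 lay above every BA mouse, and AP replicate 2 lay under BA replicate 1. The log2 fold change of Egr1 was 1.03 (SE 0.38, 95% interval from 0.16 to 1.91), and its limma adjusted p of 0.571 was the lowest of the 7. Nr4a1 (ENSMUSG00000023034.7, chromosome 15 from 101254269 to 101274795) was at 718, 314 and 245 in BA mice and at 689, 464 and 973 in AP mice. For Nr4a1 only AP replicate 3 lay above every BA mouse. Its log2 fold change was 0.83 (SE 0.43, adjusted p = 0.696 by limma).

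Arc codes for a synaptic protein that promotes the removal of AMPA receptors and, unlike the other 6 listed members, is not a transcription factor. In the BA vs AP table Arc (ENSMUSG00000022602.14, chromosome 15 from 74669083 to 74672570) was at 1103, 799 and 474 in BA mice and at 1096, 673 and 671 in AP mice. BA mice held both the highest and the lowest of the 6 values. Its log2 fold change was 0.08 with a standard error of 0.35, and the 95% interval from -0.73 to 0.89 (limma adjusted p = 0.955) leaves room for a change of the size seen in Fosb or Nr4a1. The sign of Arc turned to -0.25 without BA replicate 3 and to -0.15 without AP replicate 1. Beside AV mice, Arc was at 952, 648 and 417 in BA mice and at 1058 and 739 in AV mice. One AV mouse lay above every BA mouse and the other between them. Its log2 fold change there was 0.47 (SE 0.38, 95% interval from -0.43 to 1.37, adjusted p = 0.375 by limma), and it was not called in a table in which 29.7% of all genes were. Each BA mouse was read at between 81.1% and 88.0% of its Arc value in the other table.

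**Figure D1:**
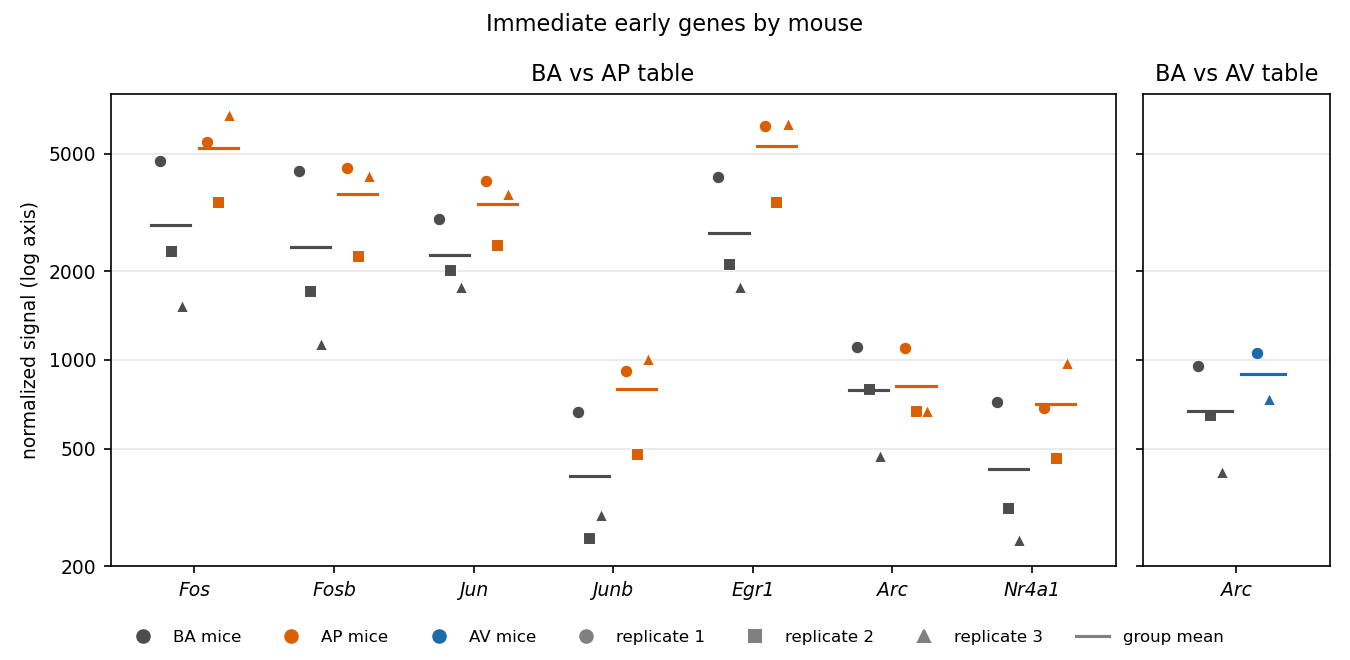
Normalized signal (log axis) of the 7 genes listed in the BA vs AP table and of Arc in the BA vs AV table, with 1 point per mouse, the shape giving the replicate number and the line the group mean. BA replicate 1 (grey circle) lies above AP replicate 2 (orange square) for all 7 genes, and Arc is the gene whose group means nearly coincide.

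All 7 listed genes had a higher group estimate in AP than in BA mice, with a median log2 fold change of 0.83 against -0.032 over all genes, and 0 of 7 were called at an adjusted p under 0.05. In this comparison 0.00846% of all genes, 1 gene, were called. Without adjustment, Egr1 and Junb, 2 of 7, had a p under 0.05, where 4.99% of all genes were higher in AP mice at that level. Among the log2 fold changes of all genes, those of Junb, Egr1, Fos, Nr4a1, Fosb, Jun and Arc stood at percentiles 97.0, 96.9, 96.4, 94.8, 94.1, 90.4 and 62.4. For 0 of 7 did every AP mouse lie above every BA mouse, as was so for 5.64% of all genes. Without BA replicate 1 the median rose to 1.32, and for 6 of 7, all but Arc, every AP mouse lay above both remaining BA mice, against 9.04% of all genes. In that fit 6 of 7 had an unadjusted p under 0.05, against 5.23% of all genes in either direction. Without AP replicate 2, 5 of 7 had one, against 7.39% of all genes, and without any other mouse 0 of 7 had one. BA replicate 1 held the highest BA value of all 7 genes, so leaving it out could only raise their estimates. The genes mostly moved together by mouse, so these counts are not counts of independent genes. With each mouse left out in turn, 0 were called. The lowest adjusted p of limma over the 7 was 0.606 without BA replicate 1 and 0.421 without AP replicate 2.

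**Figure D2:**
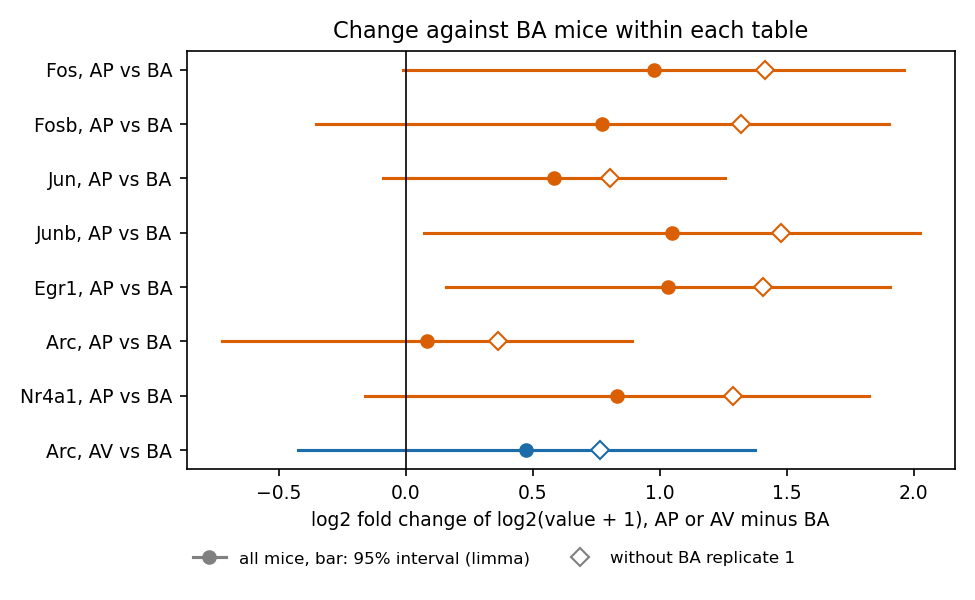
Log2 fold change of each gene against BA mice, AP minus BA in orange and AV minus BA in blue, with the limma estimate as a filled circle, its 95% interval as a bar and the estimate without BA replicate 1 as an open diamond. The intervals of Egr1 and Junb lie above 0, those of the other genes reach under it, and all 8 estimates move up without that mouse. It holds the highest BA value of each gene, so the move up follows from leaving it out.

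The spread of these genes lay mainly between mice and was shared by the genes. Of the variation in log2 value over the 6 mice, 86.4% was common to the 7 genes of a mouse, group difference included. The median difference of the 7 genes from their BA means was 0.86, -0.25 and -0.64 in BA replicates 1, 2 and 3 and 1.10, 0.28 and 1.34 in AP replicates 1, 2 and 3. The spread within the BA group was therefore of the size of the group difference, and the standard deviation of log2 values among BA mice stood between percentile 74.9 (Jun) and percentile 98.1 (Fosb) of all genes. The ratio of a pair of these genes varied less. Among the 15 pairs that leave out Arc, the standard deviation of the log2 ratio over the 6 mice had a median of 0.27 and ranged from 0.13 to 0.41, and among the 6 pairs with Arc the median was 0.63. Arc set against the median of the other 6 in the same mouse differed from it by -0.31, 0.34 and -0.09 in BA mice and by -0.57, -0.48 and -1.50 in AP mice. These groups did not overlap, with means of -0.02 ± 0.33 (SD, n = 3) in BA and -0.85 ± 0.56 (SD, n = 3) in AP mice. The ratio was chosen after its values were seen, so it is given as a description without a test.

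Per kilobase of exon, the level in BA mice was 1216 for Fos, 711 for Jun, 600.2 for Egr1, 386 for Fosb, 259 for Arc, 176 for Junb and 121 for Nr4a1. In AP mice the order of levels per kilobase began with Fos at 2226, Egr1 at 1186 and Jun at 1061. Fos stood at rank 55 of 11778 genes in BA mice, and Nr4a1, the lowest of the 7, at percentile 87.8. The ranges of the BA mice overlapped between all neighbours in the BA order, but within each of the 3 BA mice every neighbouring pair stood in the same order.

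The spread among BA mice was also a property shared with genes that the BA vs AV table does not list. Of 6967 genes with a BA mean of at least 100 in the BA vs AP table, 615, or 8.83%, are not listed in the BA vs AV table. The share was 0.232% for a coefficient of variation under 10% among BA mice, 13.1% for 20% to 30%, 54.0% for 30% to 40%, 65.9% for 40% to 50% and 68.8% for 50% and over. Fos, Fosb, Junb, Egr1 and Nr4a1 had coefficients between 48.6% and 71.6%, and Jun had 28.8%. Arc, with 39.7%, is the member listed in both tables. The high level of the 6 genes that the BA vs AV table does not list gives no estimate of their change in AV mice, which was not analysed here, and the reason for their absence from that table was not tested.

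**Figure D3:**
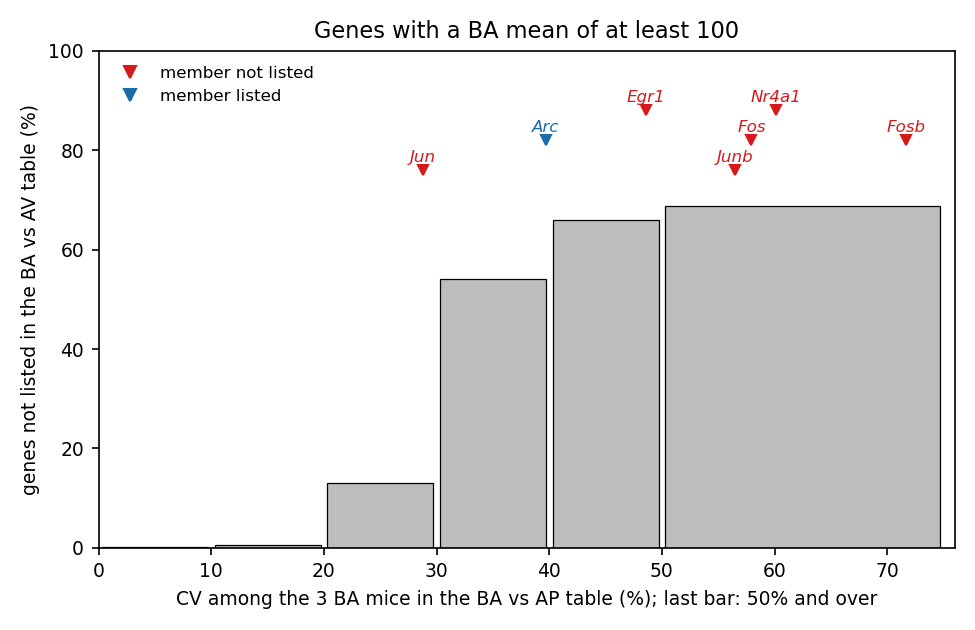
Share of genes with a BA mean of at least 100 in the BA vs AP table that the BA vs AV table does not list (bars, in %), by the coefficient of variation (CV) among the 3 BA mice. Triangles mark the CV of each of the 7 genes, at heights without meaning, with Arc in blue as the listed one, and the bars rise from 0.232% to 68.8%.

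The genes whose profile over the 6 mice of the BA vs AP table lay nearest to the mean profile of the 7 were Dusp1, Adnp, Csrnp1, Sik1 and Otud1. Their root mean square log2 difference from it was 0.20, 0.21, 0.24, 0.26 and 0.26, with a median of 0.80 over 9485 genes. Dusp1, Csrnp1 and Sik1 are themselves on the lists of other immediate early genes, coding for a MAP kinase phosphatase, a nuclear protein and a salt-inducible kinase. The genes nearest to Arc over the 5 mice of the BA vs AV table were Rnf41, Nt5m, Cops7a, Abhd17c and Csgalnact1, at 0.07, 0.13, 0.15, 0.16 and 0.17, with a median of 0.68 over 8279 genes.

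Other immediate early transcription factors numbered 11 of 20 listed in the BA vs AP table, and all 11 were higher in AP mice by group estimate, with a median log2 fold change of 0.50 and 0 called. Nr4a2, the nuclear receptor next to Nr4a1 in its family, had the largest estimate. It was at 44.6, 29.7 and 33.9 in BA mice and at 74.8, 57.3 and 159 in AP mice, without overlap, and its log2 fold change was 1.28 (SE 0.38, adjusted p = 0.425 by limma). The lowest was that of Crem, a CREB relative, at 0.10. Effector and other activity-regulated genes numbered 23 of 33 listed, 20 higher and 3 lower, with a median of 0.71 and 0 called. Zfp36, whose product speeds mRNA decay, had the largest estimate, 1.05 (SE 0.41, adjusted p = 0.606 by limma), and Amigo3 the lowest, -0.32.

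In the BA vs AV table the same lists held called genes, where 29.7% of all genes were called in either direction and 13.6% were called higher in AV mice. Of 8 listed transcription factors, 2 rose and 1 fell, with a median log2 fold change of 1.09. Nr4a2 was at 39.8, 26.1 and 34.8 in BA mice and at 193 and 113 in AV mice, without overlap, and its log2 fold change was 2.13 (SE 0.32, adjusted p = 0.00513 by limma). Egr3, a relative of Egr1 that is not listed in the other table, was at 186, 88.5 and 45.4 in BA mice and at 380 and 342 in AV mice, and the log2 fold change was 1.98 (SE 0.54, adjusted p = 0.0334 by limma). The gene that fell was Nfil3, a leucine zipper repressor, by 1.19 on the log2 scale (limma adjusted p = 0.0143). Nr4a2 was called without each BA mouse in turn, and 1 of the 8 was called higher without BA replicate 2 or 3. Calls over all genes went from 2934 to 1593, 1521 and 1781 without BA replicates 1, 2 and 3, so fewer genes were called throughout the table. Egr3 was not called without BA replicate 2 or 3, at an adjusted p of up to 0.104, nor Nfil3 without BA replicate 1, at an adjusted p of 0.0543.

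Of 12 listed effector genes in the BA vs AV table, 3 rose and 1 fell, where 29.7% of all genes were called in either direction. The median log2 fold change of the 12 was 0.13. The 3 that rose were Dusp6, a phosphatase of ERK, with 1.75 (limma adjusted p = 0.0426), Homer1, a postsynaptic scaffold, with 0.95 (adjusted p = 0.0428), and Ier5, with 0.95 (adjusted p = 0.0406). Plk3, a polo-like kinase, fell by 2.56 on the log2 scale (limma adjusted p = 0.0154), from 226, 154 and 159 in BA mice to 14.2 and 58.9 in AV mice. Dusp6 was not called without BA replicate 2 or 3 (adjusted p up to 0.136) and Plk3 not without BA replicate 1 or 2 (adjusted p up to 0.0639), and the log2 fold change of Plk3 was -1.57 without AV replicate 1. Homer1 was not called when any 1 BA mouse or AV replicate 1 was left out (log2 fold change 0.61 to 1.29, adjusted p up to 0.145), and Ier5 was not called when any 1 of the 5 mice was left out (adjusted p up to 0.115). No effector gene was called higher without BA replicate 2 or 3 (0 of 12), where the calls over all genes fell to 1521 and 1781.

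Upstream factors, the kinases, CREB coactivators and promoter-bound regulators of these genes, numbered 20 of 23 listed in the BA vs AV table. Of them 5 rose and 1 fell, a share near the 29.7% of all genes called, with a median log2 fold change of 0.65. Mef2c, a calcium-responsive factor of neurons and also of microglia, was at 90.2, 98.8 and 216 in BA mice and at 963 and 913 in AV mice, which gave a log2 fold change of 2.90 (SE 0.40, adjusted p = 0.00431 by limma). Crtc1 rose with 1.21 and Crtc2 fell by 1.42, both coactivators of CREB, with limma adjusted p values of 0.0140 and 0.0108. The number called higher was 1 without BA replicate 2 and 2 without BA replicate 3, where the calls over all genes fell to 1521 and 1781. Mef2c and Crtc2 were called without each mouse in turn. Crtc1 was not called without BA replicate 2 or 3 (adjusted p up to 0.0603), and Mrtfa not without these or AV replicate 1 (up to 0.130). Mef2d was not called without BA replicate 2 (adjusted p of 0.0532), and Rps6ka2 not when any 1 BA mouse was left out (up to 0.0797). With AP mice, 21 were listed, 14 higher and 7 lower, with a median of 0.12 and 0 called. There Mef2c had the largest estimate, 1.36, and Crtc2 the lowest, -0.42. Partners of the member proteins had 10 of 14 listed in each table. Their median was -0.05 in the BA vs AP table, with 0 called, and 0.21 in the BA vs AV table. There Mapk10, a Jun kinase, and Rxra, a receptor that pairs with Nr4a1, were called higher, with 1.56 and 0.79, where 13.6% of all genes were. Rxra was not called when any 1 BA mouse or AV replicate 3 was left out, with an adjusted p of up to 0.103.

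Markers of other cell types and heat shock genes were read beside these results. All 12 of 12 microglia markers, led by Csf1r, were listed in the BA vs AP table, summed to between 1525 and 3144 in BA mice and between 4160 and 7274 in AP mice, and had a median log2 fold change of 1.52. For 12 of 12 every AP mouse lay above every BA mouse, as was so for 5.64% of all genes, and 0 were called. By mouse, BA replicate 1, the BA mouse with the highest immediate early genes, had a microglial sum of 1636, and BA replicate 3, with the lowest, had 3144. In AP replicates 1, 2 and 3 the sums were 5533, 4160 and 7274, the same order as their immediate early genes by median. With AV mice, 3 of 12 microglia markers were listed and all 3 were called higher, with sums of 237 to 354 in BA and 722 to 939 in AV mice, although Cx3cr1 was not called when BA replicate 1 or 2 or AV replicate 3 was left out. Astrocyte markers, led by Slc1a2, summed to between 12893 and 17764 in BA mice and between 10189 and 53637 in AP mice, with 9 of 9 listed and 0 called. With AV mice, 4 of their 8 listed genes were called higher, with sums of 10231 to 15734 in BA and 31244 to 60591 in AV mice, and 2 were called without BA replicate 1 or 2 and 6 without AV replicate 1. Interneuron markers had 2 of 10 listed, with sums of 29.8 to 74.7 in BA and 26.5 to 62.1 in AP mice, and Gad1, Slc32a1, Pvalb, Sst and Vip were not listed. Dlx1, the 1 listed beside AV mice, was at 6.42 to 11.9 in BA and at 18.1 and 17.8 in AV mice and was not called (adjusted p = 0.0705 by limma). Endothelial and mural markers had 7 of 11 listed, with sums of 480.3 to 696 in BA and 518 to 688 in AP mice. With AV mice, 5 of 11 were listed, 4 of them lower by group estimate, with a median log2 fold change of -0.92. Their sums were 392 to 643 in BA and 294 to 305 in AV mice. Kdr, the receptor of VEGF, was called lower there at -2.86 (adjusted p = 0.0104 by limma), and was at -1.87 without AV replicate 1. The part of these cell types in the values of the immediate early genes was not tested.

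Heat shock genes, which respond to stress such as warming, numbered 16 of 16 listed in the BA vs AP table, 14 higher and 2 lower in AP mice, with a median log2 fold change of 0.29 and 0 called. Against their BA means they differed by a median of -0.13, 0.27 and -0.01 in BA replicates 1, 2 and 3 and 0.09, 0.44 and 0.32 in AP replicates 1, 2 and 3. By this median the order of mice differed from that of the immediate early genes, BA replicate 1 being the lowest. Single genes of the list did not all share that order. Dnajb1 was at 486, 251 and 261 in BA mice and at 596, 557 and 581 in AP mice. Hspa1a was at 197, 215 and 326 in BA mice and at 478, 595 and 274 in AP mice. Hspb1, a small heat shock protein, had the largest estimate, 1.93 (limma adjusted p = 0.344), at 4.13, 12.2 and 4.45 in BA mice and 15.6, 36.0 and 32.3 in AP mice, and Hsf1 the lowest, -0.39. The lowest value of any gene in each of these mice was 2.0, so Hspb1 lay near the floor in BA mice. With AV mice, 14 of 16 were listed, with a median of 0.16, and 29.7% of all genes were called. Hspb1 and Hspe1 were called higher, at 2.81 and 0.90, and Hsf1 lower, at -1.29. Hspb1 was at 4.01, 11.1 and 4.18 in BA mice there, again near the lowest values of those mice, 1.98, 1.97 and 1.99. Hspe1 was not called when any 1 BA mouse or AV replicate 3 was left out, nor Hsf1 when any 1 BA mouse or AV replicate 1 was, with adjusted p values of up to 0.112 and 0.127, and Hsf1 was at -0.71 without AV replicate 1. The part of a stress response in the values was not tested.

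**Figure D4:**
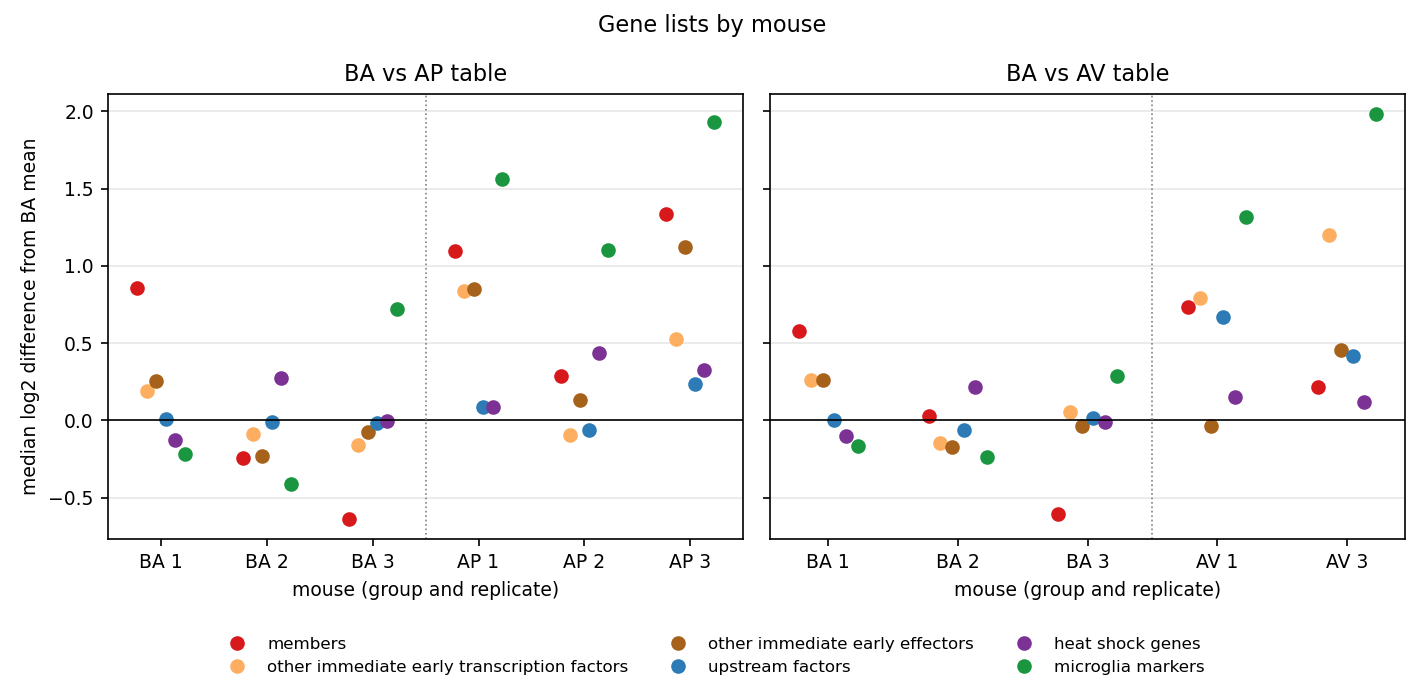
Median log2 difference from the BA mean, by mouse, of the immediate early genes (red, 7 genes on the left and Arc alone on the right), other immediate early lists, upstream factors, heat shock genes and microglia markers, in both tables. In BA replicate 1 the immediate early genes stand at 0.86 while the microglia markers stand at -0.22, and both are above 1 in AP replicates 1 and 3. In AP replicate 2 they stand at 0.28 and 1.10, in that order.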

How the data were processed

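Sorted cells of single Thy1-YFP mice, labelled as pyramidal neurons, were sequenced as stranded paired-end libraries. The authors deposited a normalized signal per gene and mouse in 2 tables, after TMM normalization, removal of low counts and ARSyN batch correction, and the sources do not say whether both tables had every step. The submitters' processing notes name Salmon 1.2, bcl2fastq 2.20 and GRCm38.p6. AV replicate 2 was not used here. Symbols, coordinates and exon lengths came from GENCODE annotation of GRCm38, which matched 11778 of 11820 and 9871 of 9872 identifiers. Groups were compared within each table by limma 3.58.1 in R 4.3.3, fitted to log2(value + 1) of every listed gene with no covariates, with calls at 0.05 after Benjamini-Hochberg adjustment. NOISeqBIO, the test of the study, was not run. The scripts were tested on simulated data. Summaries used Python 3.11.15, numpy 2.4.6 and pandas 2.3.3, and figures matplotlib 3.10.9.

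The members and lists were chosen with earlier results of these data known. Named were all members, the called genes among the 2 largest rises and falls of each list, otherwise its extremes, the 5 genes nearest in profile with a mean of at least 50, and the highest marker of a list. Ier5, Mrtfa, Mef2d and Rps6ka2 complete a count and were named after their values were seen. Promoters were taken from RefSeq. Some genes of the marker lists are not reported here. Alternatives were pseudocounts of 0.5 and 5, means of at least 10 or 50, thresholds of 0.01 and 0.1, other normalizations and variance priors, each mouse left out, and the replicate number as a block.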

Additional observations from a re-analysis of the deposited data

Results flagged for a closer look

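Tiparp, an activity-regulated gene on the effector list, had a log2 fold change of -0.46 in AV and 0.79 in AP mice, opposite signs under the same contrast with BA mice. It was at 320, 232 and 221 in BA mice and at 478, 360 and 496 in AP mice in one table, and at 266, 193 and 196 in BA mice and at 115 and 214 in AV mice in the other. The difference between the comparisons, which share the BA mice, was not tested, and neither change was called by limma, with adjusted p values of 0.322 and 0.477. Opposite signs were not particular to Tiparp. Plk3 was at -2.56 in AV and 0.30 in AP mice and Nfil3 at -1.19 and 0.28, where the 2 falls in AV mice were called. Klf6, Ppp1r15a and Mcl1 were also lower in AV and higher in AP mice, without a call.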

How the results depend on the processing

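The number of called members was 0 in each comparison under every alternative tried. The median log2 fold change of the 7 genes in AP mice lay between 0.80 and 0.83 under other pseudocounts, filters, normalizations and the replicate block, and between 0.51 and 1.32 with 1 mouse left out. For Arc in AV mice the ranges were 0.40 to 0.63 and 0.17 to 0.76. Arc in AP mice reversed to -0.25 without BA replicate 3 and to -0.15 without AP replicate 1, and with 1 mouse left out it ranged from -0.25 to 0.36. The cause was not tested. Same-numbered BA and AP mice had correlations of deviations of 0.02, 0.12 and 0.08, each highest for its own number, which is a hint from the data and not the design. In the BA vs AV table the same-numbered pairs had the lower correlations, -0.06 and -0.04. With the replicate number as a block the median in AP mice was 0.83 and Arc in AV mice was 0.49, with 0 members called. The calls over all genes of the BA vs AV table went from 2934 to 970, and those of the BA vs AP table from 1 to 0. In the BA vs AV table replicate number 2 belongs to a BA mouse alone, so the block takes that mouse out of the estimate. Arc in AV mice was likewise at 0.49 without BA replicate 2. Whether the calls lost there reflect the replicate number or the lost mouse cannot be told apart. Of the called genes named from the lists that are not cell type markers, Nr4a2, Mef2c and Hspb1 were still called with the block and the other 15 were not, median centring lost Homer1 and Hspe1, and quantile normalization lost Hspe1. Hspb1 lay near the floor in BA mice and was taken out by the filter for a mean of at least 50. In AV mice the upstream factors called higher went from 5 to 8 with a pseudocount of 5 and to 9 with a mean of at least 50 or a variance prior that follows expression, and the transcription factors from 2 to 4 under the same 3 settings. Over all genes the calls under these settings were 3175, 2817 of 7875 and 3431. With AV mice the depth is unknown, so how depth limits the values of Arc there cannot be said.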
